A study of Mus musculus with 24 samples.

Results

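A set of 10 protein genes carried by mitochondrial DNA was followed through ribosome footprints of 24 mouse livers. They were taken by symbol from the deposited gene table and are mt-Nd1, mt-Nd2, mt-Nd4, mt-Nd5, mt-Cytb, mt-Co1, mt-Co2, mt-Co3, mt-Atp6 and mt-Atp8, 10 of the 22429 genes in the table. Mitochondrial DNA holds 13 protein genes, and the other 3, mt-Nd3, mt-Nd4l and mt-Nd6, are given for comparison. All 10 passed the filter on low counts, which kept 12211 genes for testing.

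The respiratory chain sits in the inner membrane of the mitochondrion. Complexes I, III and IV pass electrons from fuel to oxygen and pump protons, and complex V uses the proton gradient to make ATP, on which liver functions such as glucose and urea synthesis draw. Most subunits of these complexes are encoded in the nucleus and made by cytosolic ribosomes, but a small core is encoded by mitochondrial DNA, transcribed as long joint transcripts and translated by the mitochondrion's own ribosomes. Cycloheximide, which was present in the lysis buffer, arrests cytosolic ribosomes and not mitochondrial ones, and how this bore on the footprints counted here was not tested.

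The livers came from male F1 mice of the strains C57BL6J and FVBN, in 6 groups of 4 animals each. Ercc1 d/- mutants, which carry 1 null and 1 truncated allele of the DNA repair gene Ercc1 in the whole body and age fast, were taken at 16 weeks on 30% dietary restriction (DR), at 16 weeks with food ad libitum (AL) and at 7 weeks with food AL. Wild types were taken at 16 weeks on 30% DR, at 104 weeks with food AL and at 16 weeks with food AL. Restriction began at 7 weeks of age and was at its full level from 9 weeks, all mice ate the same synthetic pellets, and food was withheld on the last day until the liver was taken. The maternal strain of the F1 mice, which sets the mitochondrial genome, is not given in the sources used here.

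Libraries held 13366558 to 27084259 counts. Ercc1 itself had 1 to 15 counts in the 12 mutant libraries and 34 to 110 counts in the 12 wild-type libraries, so every library matched its genotype label. All 8 hepatocyte markers were present in every group, and their summed level was 176569 to 213203 CPM (read counts scaled to a common effective library size) in restricted mutants and 116770 to 152639 CPM in mutants fed AL at 16 weeks. Albumin alone took 15.5 ± 1.59% of counts in restricted mutants, 16.4 ± 1.84% in restricted wild types, 6.42 ± 1.63% in wild types at 104 weeks and 9.92 ± 0.657% in wild types at 16 weeks fed AL (SD, n = 4 each). In bulk liver, fewer cells of a type and less RNA per cell cannot be told apart.

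The members lie on chromosome MT of build GRCm38.p6, with positions from RefSeq, and have no introns. The complex I subunits, which form the proton-pumping membrane arm, are mt-Nd1 at MT:2751-3707, mt-Nd2 at MT:3914-4951, mt-Nd4 at MT:10167-11544 and mt-Nd5 at MT:11742-13565. mt-Cytb, the cytochrome b of complex III that carries both of its quinone sites, lies at MT:14145-15288. The catalytic core of complex IV, where oxygen is reduced, is made by mt-Co1 at MT:5328-6872, mt-Co2 at MT:7013-7696 and mt-Co3 at MT:8607-9390. The complex V members are mt-Atp8 at MT:7766-7969 and mt-Atp6, the proton channel subunit, at MT:7927-8607. mt-Atp8 and mt-Atp6 share 43 bases, and mt-Atp6 and mt-Co3 share 1 base. Nuclear copies of mitochondrial DNA exist, and how reads that fit several places were counted is not given in the sources used here. The table listed 0 ribosomal or transfer RNA genes of mitochondrial DNA.

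The members together took between 0.0503% of a library, in replicate 4 of the wild types at 104 weeks, and 1.14%, in replicate 1 of the restricted mutants, a 22.7-fold range. The smaller of these rested on 6945 counts and a single member in a single library on at least 106, so counting error was small beside the differences between livers. Their summed level was 10548, 4547, 2596 and 2498 CPM in replicates 1 to 4 of the restricted mutants. It was 3966, 1399, 2744 and 1882 CPM in mutants fed AL at 16 weeks and 2512, 2086, 1359 and 1804 CPM in mutants at 7 weeks. A single restricted mutant stood far above the other 3, and the remaining restricted mutants lay within or just above the range of the mutants fed AL.

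In wild types the sum was 5036, 3886, 3395 and 3075 CPM under restriction. It was 1444, 2181, 613 and 480 CPM at 104 weeks and 3969, 4056, 2529 and 1086 CPM at 16 weeks with food AL. In CPM, restricted wild types were the most even group, with a 1.64-fold span between livers, followed by mutants at 7 weeks with 1.85-fold. The span was 4.55-fold at 104 weeks, 4.22-fold in restricted mutants, 3.73-fold in wild types fed AL at 16 weeks and 2.83-fold in mutants fed AL at 16 weeks. By share of counts, mutants at 7 weeks were the most even, with 1.77-fold against 1.95-fold in restricted wild types. The plot of the summed level by library shows these spans, and that the ranges of most pairs of groups cross.

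**Figure D1:**
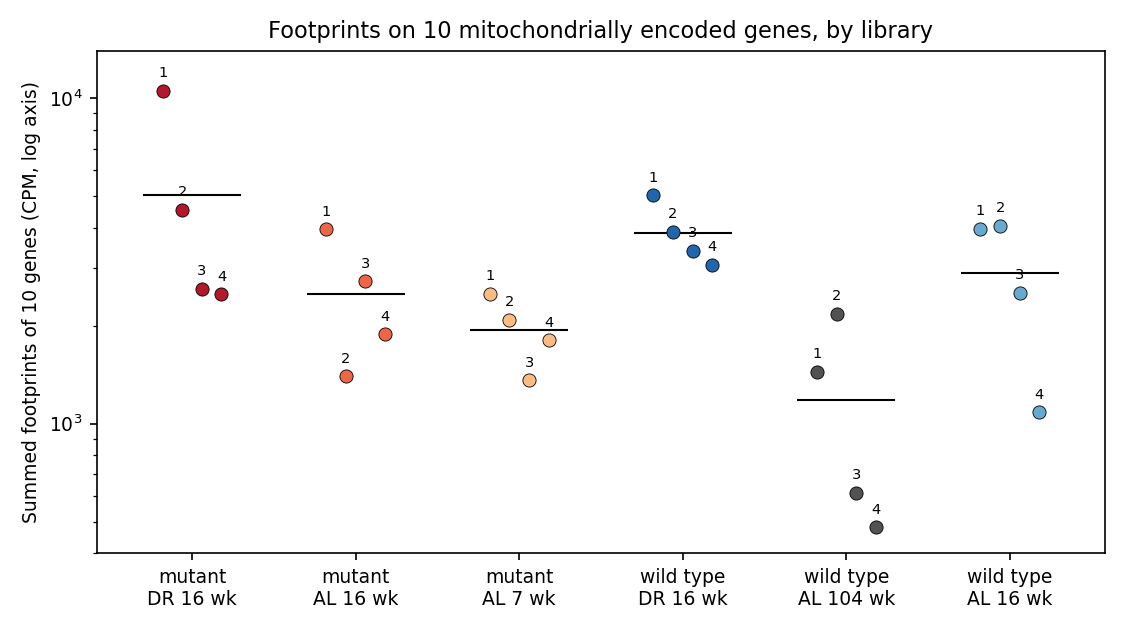
Summed level of the 10 members in each of 24 libraries, in CPM on a log axis; the number above a point is the replicate and the line is the group mean (n = 4). Restricted mutants span 2498 to 10548 CPM and wild types at 104 weeks 480 to 2181 CPM.

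The members differed strongly among themselves in level. Per kilobase of gene, the median over 24 libraries was 536 CPM for mt-Co1, 422 for mt-Co2 and 353 for mt-Co3, so the complex IV core led. mt-Cytb followed at 320 CPM per kilobase, then mt-Atp6 at 279 and mt-Atp8 at 187. The complex I members were lowest, with 120 for mt-Nd5, 109 for mt-Nd4, 95.2 for mt-Nd2 and 75.4 for mt-Nd1. The order of levels was mostly shared by the livers: mt-Co1 exceeded mt-Co2 in 22 of 24 libraries, mt-Atp6 exceeded mt-Atp8 in 24 and mt-Nd2 exceeded mt-Nd1 in 24. Neighbours that changed places often were mt-Nd5 and mt-Nd4, with mt-Nd5 higher in 10 of 24 libraries, mt-Co3 and mt-Cytb, with mt-Co3 higher in 15, and mt-Cytb and mt-Atp6, with mt-Cytb higher in 17. The per-length levels of the other 3 genes were 290 for mt-Nd4l, 130 for mt-Nd3 and 104 for mt-Nd6. Reads in the shared bases of overlapping genes can fall to either gene, which weighs most on mt-Atp8, 204 bases long.

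**Figure D2:**
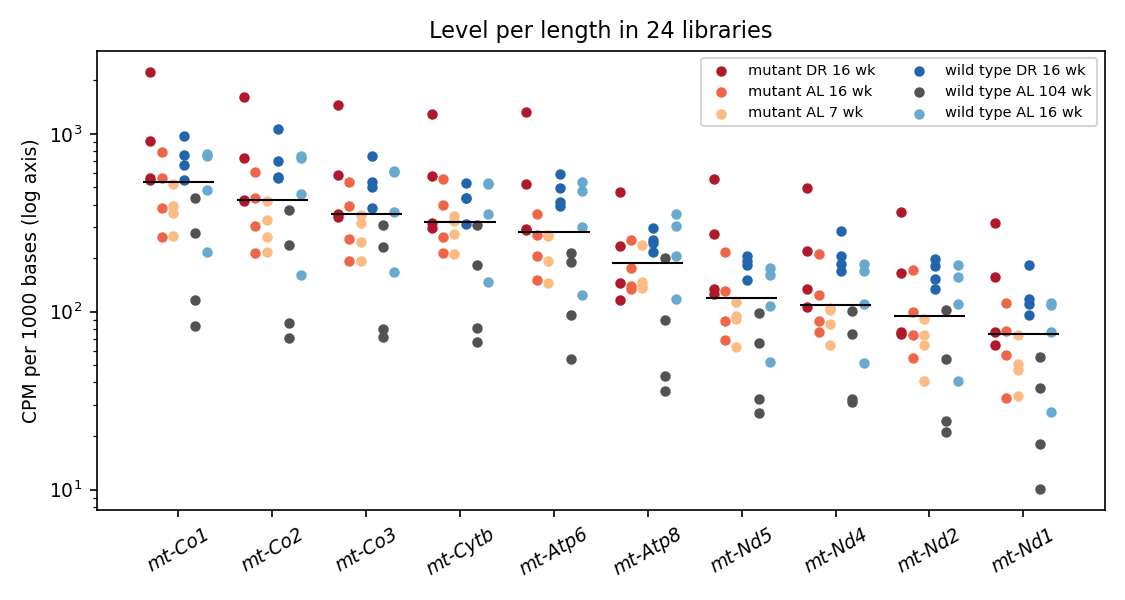
Level of each member per kilobase of gene, in CPM on a log axis, with 1 point per library and a line at the median over 24 libraries. mt-Co1 leads at 536 and mt-Nd1 is lowest at 75.4.

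Livers of the same group differed in these genes far more than in most others. The within-group SD of log2 CPM was 0.69 to 0.83 in the members, against a median of 0.34 over all tested genes and 0.22 over the 1801 genes with a mean of at least 50 CPM. Each member's SD exceeded that of 90.5% to 96.1% of tested genes. The 72 nuclear-encoded subunits of complexes I, III, IV and V had SDs of 0.08 to 0.30, with a median of 0.16, and 0 of them reached the lowest member. Across all 24 libraries, the mean log2 CPM of the members ranged over 4.52 for complex IV and 4.16 for complex V, while the nuclear subunits of those complexes ranged over 0.78 and 0.71.

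The members moved as a block between livers. Over 24 libraries that share groups and library scaling, Pearson's r of log2 CPM ran from 0.89, between mt-Nd5 and mt-Atp8, to 0.99, between mt-Co2 and mt-Co3, over the 45 pairs. In the 36 pairs without mt-Atp8 it was at least 0.96. The heat map of all members by library shows columns of nearly one shade.

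**Figure D3:**
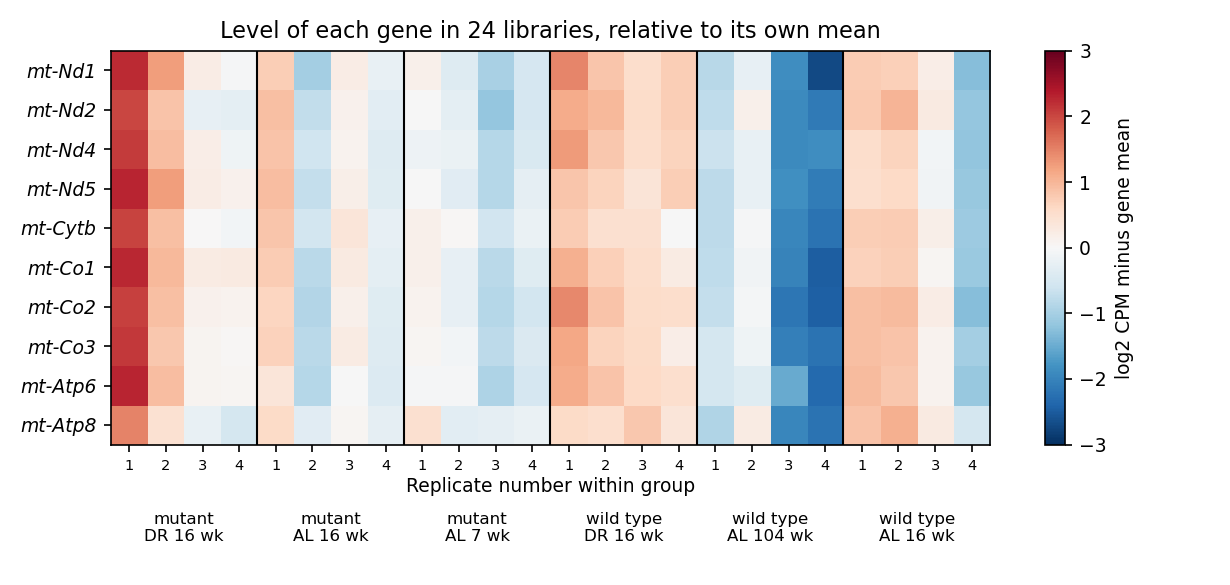
Log2 CPM of each member minus its mean over 24 libraries, with members as rows and libraries as columns grouped by genotype, diet and age. Columns tend to carry 1 shade, highest in replicate 1 of the restricted mutants and lowest in replicates 3 and 4 of the wild types at 104 weeks.

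In restricted mutants all 10 members had higher mean levels than in mutants fed AL, and none passed the test. mt-Co1, the subunit that holds the oxygen-binding site, had 3456, 1402, 853 and 869 CPM in restricted mutants, against 1221, 409, 873 and 590 CPM in mutants fed AL. The highest 2 livers were restricted, and the ranges overlapped because replicates 3 and 4 lay among the mutants fed AL. The means were 1645 ± 1234 CPM and 773 ± 354 CPM (SD, n = 4 each), a log2 change of 1.09 ± 0.53 (SE) with an adjusted p of 0.209 by edgeR's quasi-likelihood test with Benjamini-Hochberg adjustment. mt-Atp6 had 908, 354, 199 and 196 CPM in restricted mutants, against 242, 103, 184 and 140 CPM in mutants fed AL, and its log2 change of 1.31 ± 0.52 was the largest of the 10 (adjusted p = 0.112). mt-Nd5 had 1022, 496, 243 and 230 CPM in restricted mutants, against 397, 127, 237 and 162 CPM in mutants fed AL, with a log2 change of 1.11 ± 0.50 (adjusted p = 0.167). Both had an unadjusted p under 0.05, 2 of 10 members beside 25.5% of tested genes.

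Over the 10 members the median log2 change of restricted mutants was 1.00, with a range of 0.47 to 1.31, against a median of 0.00 over all tested genes. None of the 10 was called, beside 11.6% of all tested genes called in either direction in this comparison. The 95% intervals of the members reached together from 0.691-fold to 5.23-fold. Without replicate 1 of the restricted mutants the median was 0.37.

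In wild types the same diet left every member short of the threshold as well. mt-Co1 had 1508, 1180, 1029 and 851 CPM in restricted wild types, against 1165, 1196, 748 and 335 CPM in wild types fed AL. The restricted livers were close together, and 3 of them lay within the wider range of the livers fed AL. The median log2 change of the members was 0.42, with a range of 0.04 to 0.71 and standard errors of 0.48 to 0.56. Of the 10 members 0 were called, against 12.1% of tested genes, and 0 had an unadjusted p under 0.05, beside 26.8% of tested genes. The response of mutants minus that of wild types had a median of 0.55 and a range of 0.22 to 0.91 on the log2 scale, with 0 members called against 0.803% of tested genes. That difference had a median of -0.07 without replicate 1 of the restricted mutants.

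Between mutants and wild types under restriction, the members had a median log2 change of 0.30 and a range of -0.06 to 0.58. mt-Cytb had 1470, 664, 363 and 339 CPM in restricted mutants, against 609, 501, 501 and 356 CPM in restricted wild types. The mutants held both the highest and, in replicate 4, the lowest value. In this comparison 0 of the 10 members were called, while 18.2% of tested genes were. Without replicate 1 of the restricted mutants all 10 log2 changes were below 0, with a median of -0.37.

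**Figure D4:**
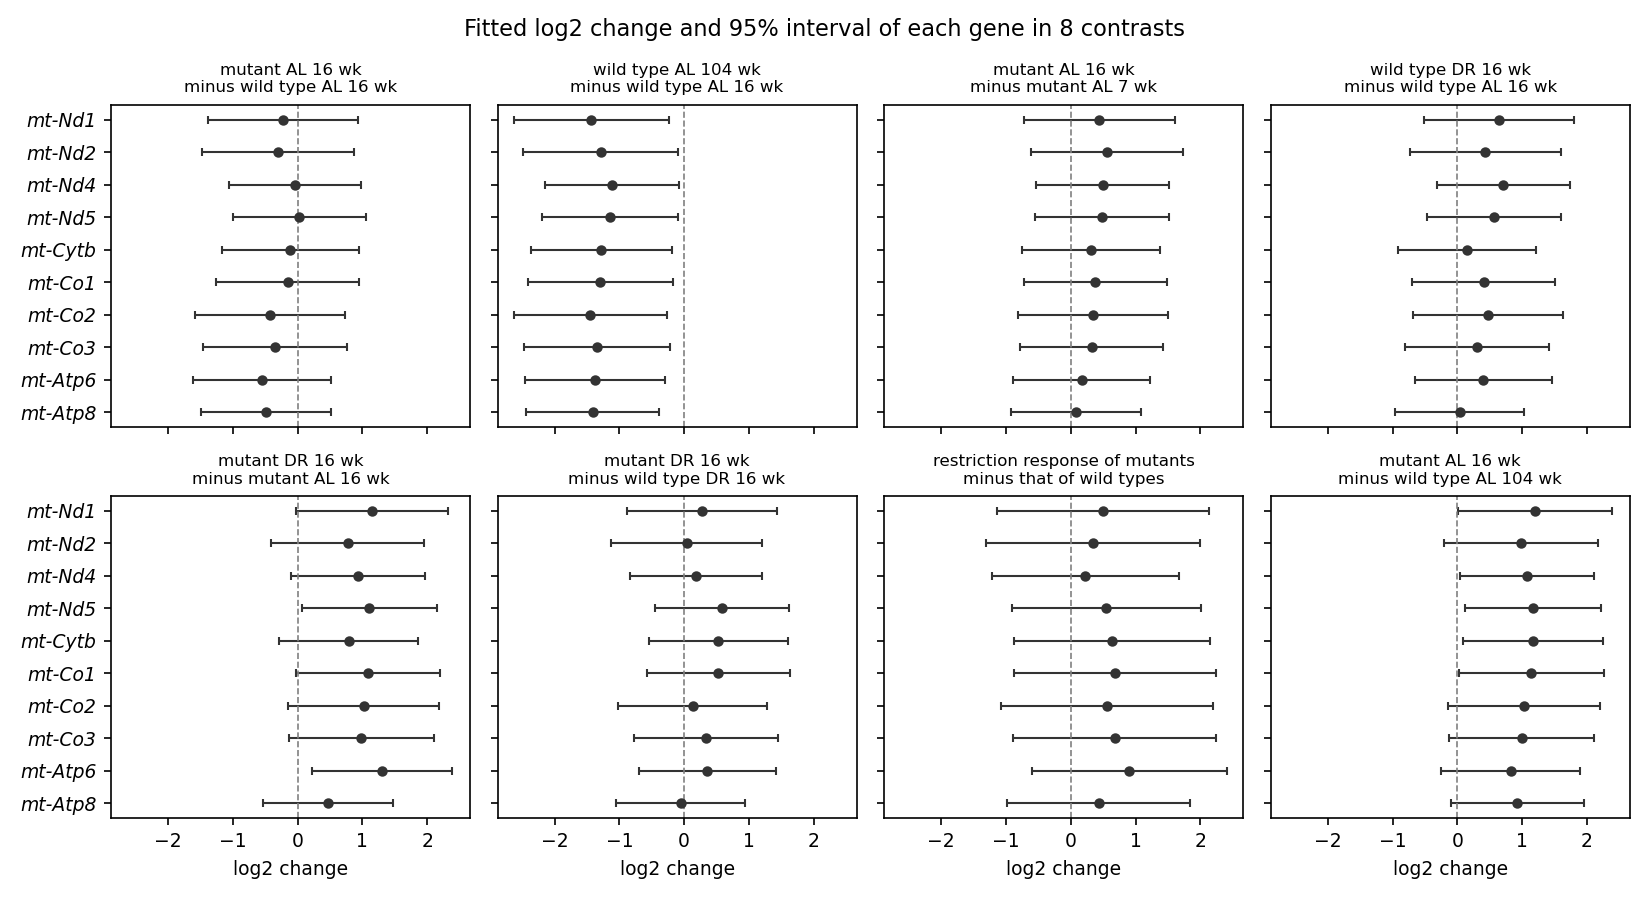
Log2 change of each member with its 95% interval in 8 comparisons, each named as the group minus the one it is set against. Values lie below 0 for all 10 members in wild types at 104 weeks minus 16 weeks and above 0 for all 10 in restricted mutants minus mutants fed AL.

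In naturally aged wild types all 10 members had lower mean levels than in young ones, and 0 passed the test after adjustment. mt-Co1 had 426, 671, 180 and 129 CPM in wild types at 104 weeks, against 1165, 1196, 748 and 335 CPM in wild types at 16 weeks. Replicates 3 and 4 at 104 weeks were below every younger liver, and replicates 1 and 2 lay above the lowest younger one. Its log2 change was -1.29 ± 0.54. mt-Atp8 had 18.4, 40.7, 8.88 and 7.32 CPM at 104 weeks, against 62.0, 72.2, 41.8 and 24.1 CPM at 16 weeks, and its log2 change of -1.41 ± 0.49 had the lowest adjusted p of the members, 0.0779 by edgeR's quasi-likelihood test.

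The members' median log2 change with age was -1.32, with a range of -1.45 to -1.12, and 95% intervals from 0.162-fold to 0.945-fold. None of the 10 was called, against 9.34% of tested genes, and all 10 had an unadjusted p under 0.05, as did 23.2% of tested genes. The 10 correlated closely over libraries and are not independent observations. Without replicate 2 at 104 weeks, the liver of that group highest in the members, the median was -1.81. In that fit 3 members were called, mt-Cytb at -1.80, mt-Co2 at -1.99 and mt-Atp8 at -2.11, beside 921 of 12381 tested genes. It was the only 1 of 8 fits with a single library left out that called any member. With the replicate number added to the fit as a block, 8 members were called, beside 1096 of 12211 tested genes. Other features moved with this comparison. Libraries held 14594800 counts on average at 104 weeks and 20327700 at 16 weeks. At 104 weeks replicates 3 and 4, lowest in the members, had the fewest counts, 13671963 and 13804555. At 16 weeks replicate 4, lowest in the members, had the fewest, 13366558, while replicate 2, the highest in the members, had 17464227. The summed level of 7 B and plasma cell markers was 34.9 to 83.1 CPM at 104 weeks and 1.40 to 4.23 CPM at 16 weeks, with no marker at 0 in all libraries of either group. The 8 hepatocyte markers summed to 97643 to 166927 CPM at 104 weeks and 155251 to 168814 CPM at 16 weeks, and the 12 macrophage markers to 424 to 573 CPM at 104 weeks and 271 to 319 CPM at 16 weeks. Their part in the members' difference was not tested.

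Between the progeroid mutants and wild types at 16 weeks, both fed AL, no member passed the test. mt-Co1 had 1221, 409, 873 and 590 CPM in mutants fed AL, against 1165, 1196, 748 and 335 CPM in wild types fed AL, and the groups overlapped almost fully. Its log2 change was -0.16 ± 0.53, and the members' median was -0.27, with a range of -0.55 to 0.03. Of the 10, 0 were called, against 10.7% of tested genes, and the 95% intervals allowed from 0.327-fold to 2.08-fold. The macrophage markers summed to 538 to 705 CPM in mutants fed AL and 271 to 319 CPM in wild types fed AL, and their part was not tested.

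Between 16 and 7 weeks in mutants the members had a median log2 change of 0.36, with a range of 0.08 to 0.56. mt-Co1 had 1221, 409, 873 and 590 CPM at 16 weeks, against 806, 603, 412 and 555 CPM at 7 weeks. Again 0 of the 10 were called, and 0.434% of tested genes were. Set against naturally aged wild types, mutants at 16 weeks had a median log2 change of 1.05, with a range of 0.83 to 1.20. In that comparison 0 members were called against 12.7% of tested genes, and 5 had an unadjusted p under 0.05, beside 26.2% of tested genes, namely mt-Nd1, mt-Nd4, mt-Nd5, mt-Cytb and mt-Co1. Without replicate 2 at 104 weeks the median was 1.59 and mt-Cytb (1.70) and mt-Atp8 (1.64) were called, beside 1373 of 12381 tested genes. With the replicate number as a block, 6 members were called, beside 1473 of 12211 tested genes. For all 10 members the libraries of the groups overlapped in each of the 7 comparisons of a pair of groups. Groups were free of overlap in 22.2% of tested genes for mutants against wild types at 16 weeks, 17.6% for ageing, 10.7% for mutants at 16 against 7 weeks, 14.6% for restriction in wild types, 17.5% for restriction in mutants, 15.2% for genotype under restriction and 19.2% for mutants at 16 weeks against wild types at 104 weeks. The other 3 genes of mitochondrial DNA were called in none of the 8 comparisons, with median log2 changes of -1.29 for wild types at 104 against 16 weeks and 1.03 for restricted mutants against mutants fed AL.

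A narrower reading came from the ratios between members, in which what moves all of them together drops out. The log2 ratio of a member to the mean of the other 9, per length, had an SD over 24 libraries of 0.11 to 0.21 in 9 members and 0.37 in mt-Atp8. mt-Atp8, a small membrane subunit of complex V, was the member that kept least to the rest. These ratios are described without a test, and those named were chosen after their values were seen.

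In restricted mutants, mt-Atp8 counts were 10.6%, 13.5%, 14.9% and 12.2% of mt-Atp6 counts, against 21.2%, 26.6%, 19.4% and 20.3% in mutants fed AL. The groups did not overlap, and every restricted mutant was below every mutant fed AL. In restricted wild types the ratio was 12.7%, 14.6%, 21.5% and 16.6%, against 17.0%, 22.1%, 20.6% and 28.4% in wild types fed AL, which overlapped. It was 26.3%, 15.3%, 28.7% and 22.9% in mutants at 7 weeks and 14.2%, 27.9%, 13.6% and 19.8% in wild types at 104 weeks. The mutants at 7 weeks lay above every restricted mutant, but at the nearest only by 15.3% against 14.9%. The 95% counting intervals of those livers, 13.9% to 16.9% and 13.9% to 16%, overlapped. The wild types at 104 weeks overlapped each of the other groups.

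Relative to the other 9 members, mt-Atp8 stood at a log2 ratio of -0.72 ± 0.14 in restricted mutants and -0.16 ± 0.28 in mutants fed AL (SD, n = 4 each). mt-Atp6 stood at 0.66 ± 0.10 in restricted mutants and 0.35 ± 0.13 in mutants fed AL, which were the lowest group. It was at 0.52 in mutants at 7 weeks, 0.63 in restricted wild types, 0.64 at 104 weeks and 0.60 in wild types fed AL at 16 weeks. mt-Nd2 stood at -1.40 ± 0.13 in restricted mutants and -1.16 ± 0.11 in mutants fed AL. Mutants at 7 weeks, at -1.38 ± 0.14, were close to the restricted mutants in mt-Nd2. mt-Cytb stood at 0.73 ± 0.01 in restricted mutants and 0.93 ± 0.06 in mutants fed AL, with no overlap. It was lowest in restricted wild types, at 0.46 ± 0.19, against 0.76 ± 0.05 in wild types fed AL. mt-Nd4 was lowest in wild types fed AL at 16 weeks, at -0.99 ± 0.06, against -0.68 ± 0.12 in restricted wild types. Other groups stood near the restricted wild types, with -0.70 ± 0.25 in wild types at 104 weeks and -0.77 ± 0.12 in mutants fed AL at 16 weeks. Restricted mutants were at -0.79 ± 0.10 and mutants at 7 weeks at -0.90 ± 0.13. Between restricted mutants and mutants fed AL, the groups did not overlap in the ratios of mt-Nd2, mt-Cytb, mt-Atp6 and mt-Atp8. They overlapped in those of mt-Nd1, mt-Nd4, mt-Nd5, mt-Co1, mt-Co2 and mt-Co3. Restricted wild types and wild types fed AL did not overlap in those of mt-Nd4 and, narrowly, mt-Cytb. For mt-Cytb the highest restricted liver was at 0.697 and the lowest liver fed AL at 0.702. How often such ratios of other genes are free of overlap was not counted. A ratio of 1 member enters the mean that the others are set against, so these are not independent. Over 24 libraries the SD of a ratio was at most 0.37, beside 0.89 to 1.01 for the members' mean log2 CPM by complex. Between mutants fed AL and restricted mutants mt-Atp8 went from -0.16 to -0.72. That was not small beside the members' median log2 change of 1.00.

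**Figure D5:**
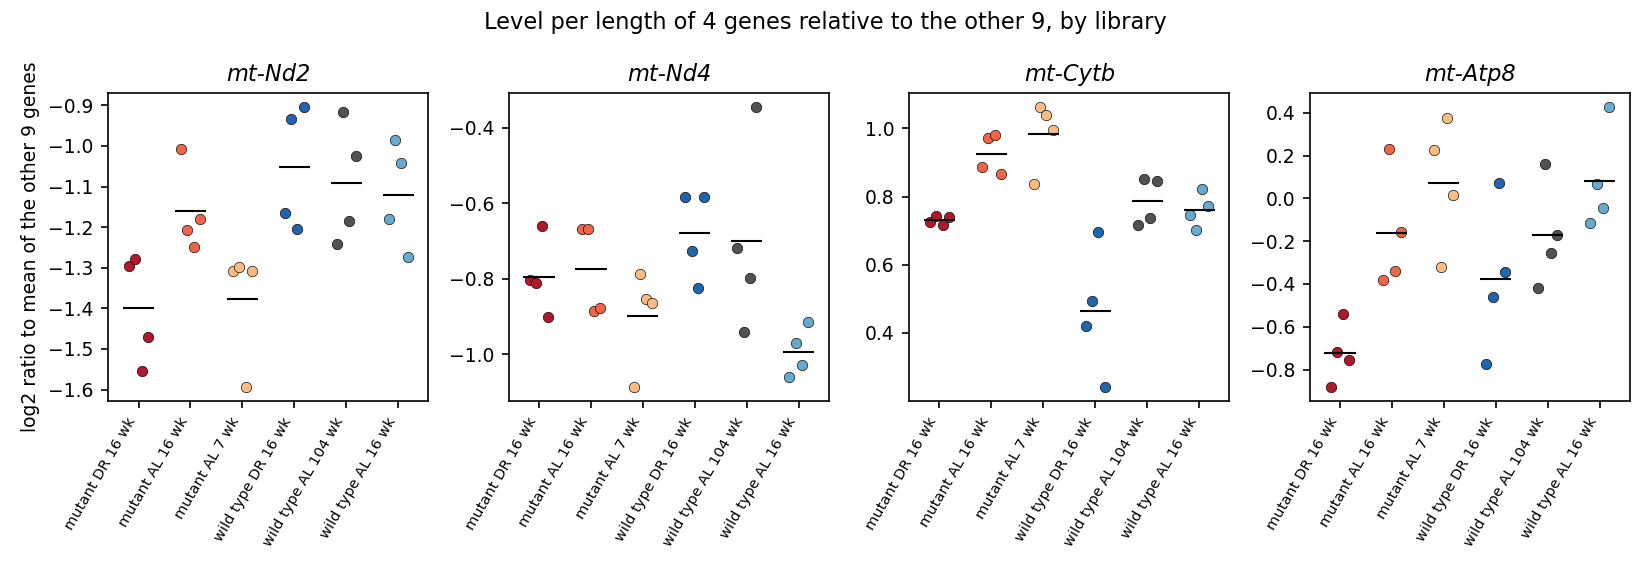
Log2 ratio of mt-Nd2, mt-Nd4, mt-Cytb and mt-Atp8 to the mean of the other 9 members, per length, with 1 point per library and a line at the group mean. mt-Atp8 is at -0.72 in restricted mutants and -0.16 in mutants fed AL, and mt-Cytb at 0.73 and 0.93 in the same groups.

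Some nuclear-encoded partners of the members passed the test in restricted mutants, where none of the members did. The members' median log2 change there was 1.00, with standard errors of 0.48 to 0.56, so the lack of calls does not show a smaller change. Of 72 nuclear subunits of complexes I, III, IV and V, 31 (43.1%) rose in restricted mutants over mutants fed AL and 0 fell, beside 5.59% of tested genes that rose, and their median log2 change was 0.28. By complex, 11 of 36 rose in complex I, 6 of 9 in III, 8 of 12 in IV and 6 of 15 in V. Atp5b, the catalytic subunit of complex V, had 1711, 1728, 1601 and 1903 CPM in restricted mutants, against 1187, 1184, 1120 and 1141 CPM in mutants fed AL. The groups did not overlap, with a log2 change of 0.58 ± 0.11 and an adjusted p of 0.000711 by edgeR's quasi-likelihood test. Cox7c, a small complex IV subunit, averaged 171 ± 36.6 CPM in restricted mutants and 98.9 ± 11.4 CPM in mutants fed AL (SD, n = 4 each), a log2 change of 0.79 ± 0.15. Uqcrc2, a core protein of complex III, changed by 0.45 ± 0.11 and Ndufv1, which holds the NADH site of complex I, by 0.53 ± 0.11.

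The count of 31 did not hold its size when livers were left out: it lay between 14 and 27 with 1 liver of either group left out in turn, with 14 without replicate 4 and 20 without replicate 1 of the restricted mutants, and 18 and 19 without replicates 4 and 3 of the mutants fed AL. In wild types 7 nuclear subunits rose under restriction and 0 fell, beside 5.44% of tested genes that rose, with Atp5h, a stator subunit of complex V, at a log2 change of 0.48 ± 0.11. In the response of mutants minus that of wild types, 0 of the 72 were called, beside 0.803% of tested genes. Their median log2 change there was 0.12, so a stronger rise in mutants was not shown. With age 5 fell and 0 rose in wild types, beside 4.59% of tested genes that fell, and the count moved with single livers. It was 11, 3 and 1 without replicates 1, 3 and 4 at 104 weeks, and 1, 1 and 2 without replicates 1, 3 and 4 at 16 weeks. Ndufb4 of complex I changed by -0.61 ± 0.13 and Atp5k of complex V by -0.47 ± 0.13. In mutants against wild types at 16 weeks 4 fell, beside 5.04% of tested genes, among them Ndufb9 at -0.42 ± 0.12 and Cox4i1 at -0.37 ± 0.11.

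Genes that copy, transcribe and translate mitochondrial DNA were counted in the same comparisons, in which 4.59% of tested genes fell with age and, in restricted mutants against mutants fed AL, 5.59% rose and 6.04% fell. Of 19 genes of mitochondrial DNA copying and transcription, 1 fell with age in wild types, and the list's median log2 change was -0.24, beside 0.01 over all tested genes. It was Tfam, which packages and transcribes mitochondrial DNA, with 15.3 ± 3.52 CPM at 104 weeks and 21.2 ± 1.5 CPM at 16 weeks (SD, n = 4 each; log2 change -0.48 ± 0.15, adjusted p = 0.0425 by edgeR's quasi-likelihood test). Of 19 genes of mitochondrial RNA processing 2 fell with age and 0 rose, among them Hsd17b10, a subunit of mitochondrial RNase P, at -0.85 ± 0.15. In restricted mutants 2 of this list rose, Grsf1 at 0.57 and Fastkd1 at 0.63, and 1 fell, Rexo2 at -0.72. Of 79 mitochondrial ribosomal proteins 0 were called with age, and in restricted mutants against mutants fed AL 5 rose and 8 fell, with a median log2 change of -0.11. Of 14 mitochondrial translation factors 1 fell with age, Gfm1, an elongation factor, at -0.36 ± 0.10, and in restricted mutants 3 rose and 1 fell. Among those that rose was Oxa1l, which inserts newly made subunits into the inner membrane, with 51.0 ± 8.85 CPM in restricted mutants and 35.5 ± 3.85 CPM in mutants fed AL. Of 17 mitochondrial aminoacyl-tRNA synthetases 0 were called with age and 1 fell in restricted mutants. Of 40 assembly factors 1 rose and 5 fell in restricted mutants against mutants fed AL.

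In 15 mitochondrial chaperones and proteases 2 fell with age, beside 4.59% of tested genes, and 2 rose in restricted mutants, beside 5.59%. Among those that fell was Clpx, part of a matrix protease, at -1.10 ± 0.22 on the log2 scale. In mutants against wild types at 16 weeks, 5.69% of tested genes rose and 5.04% fell. Of the mitochondrial ribosomal proteins, Dap3 rose by 0.72 ± 0.12 and Mrps31 by 0.42 ± 0.12, while Mrps28 changed by -0.44 ± 0.12. Sco2, a copper chaperone of complex IV, rose by 1.04 ± 0.21 and Fars2, a mitochondrial synthetase, changed by -0.87 ± 0.18.

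The citric acid cycle and the regulators of biogenesis also held calls in restricted mutants. Of 13 genes of the citric acid cycle 5 rose and 0 fell, beside 5.59% of tested genes that rose, among them Mdh2 at 0.75 ± 0.10 and Idh3a at 1.01 ± 0.15 on the log2 scale. Of 10 regulators of mitochondrial biogenesis 2 rose and 0 fell, beside the same 5.59%, with list medians of 0.28 for the cycle and 0.22 for the regulators. They were Esrra, a nuclear receptor of mitochondrial genes, at 0.69 ± 0.20 and Ppargc1a, a coactivator of mitochondrial biogenesis, at 2.25 ± 0.57. Ppargc1a had 47.1, 10.7, 4.87 and 4.79 CPM in restricted mutants, against 3.55, 3.64, 2.35 and 4.55 CPM in mutants fed AL. Replicate 1, far above the rest in Ppargc1a, is also the liver highest in the members, and replicate 2 was the next highest in both. In restricted wild types Ppargc1a was 6.09, 16.9, 4.11 and 9.10 CPM, and there replicate 1, the highest in the members, was not the highest in Ppargc1a. Without replicate 1 of the restricted mutants the log2 change of Ppargc1a was 0.94 ± 0.35 and was no longer called (adjusted p = 0.107 by edgeR's quasi-likelihood test). Whether the levels are linked was not tested.

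Among 7249 genes outside mitochondrial DNA with a mean of at least 5 CPM, likeness to the members was measured over 24 libraries. Pearson's r with the members' mean log2 CPM was among the highest for Pdcd2 and Sypl (0.82 each), Cox5a and Rpl38 (0.79 each) and Uqcrh (0.77). Cox5a, a nuclear subunit of complex IV, had 312, 294, 257 and 304 CPM in restricted mutants, 210, 188, 141 and 155 CPM in wild types at 104 weeks and 250, 204, 203 and 211 CPM in wild types fed AL at 16 weeks. Its range was narrow beside that of the members. The most opposite genes were Frmd8 (-0.82), Gprc5c (-0.80), Hsd3b7 (-0.76), Myo10 and Lap3 (-0.74 each) and Lgals9 (-0.73). Without the 2 libraries farthest from the median of the members, r was 0.81 for Sypl, 0.72 for Cox5a and 0.73 for Pdcd2. The libraries share groups and scaling, so these values describe likeness and carry no p.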

How the data were processed

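The values are whole read counts per gene and library from the table the authors deposited, not normalized, as its values show. The build was GRCm38.p6, and Bowtie2 2.4.2, cutadapt 3.4, Subread 1.6.4 with featureCounts, STAR in versions 2.7.8a and 2.7.0f and Trimmomatic 0.39 are named in the submitters' processing notes. The sources used here do not give what each did, the annotation, the use of strand or the handling of multi-mapping reads. A deposited table of open reading frames names no genes and was not used here.

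In R 4.3.3 with edgeR 4.0.16, genes kept by filterByExpr were scaled by TMM and fitted over all 24 libraries with 1 robust quasi-likelihood term per group. Tests were 2-sided, adjusted by Benjamini-Hochberg over all 12211 genes at 0.05. The SE is the size of the log2 change divided by the square root of F. CPM, counts scaled by effective library size, were computed here, with a prior count of 2 in log2 CPM. Positions and lengths came from RefSeq. Intervals of shares are exact and cover counting error only. Each library is 1 animal. The fit was tested on simulated data.

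The members and lists were chosen with earlier results of these data known. All members are named, with at most 3 genes per list and comparison with the smallest adjusted p. Other scalings, filters, DESeq2 1.42.0, a fit on the groups compared, the replicate number as a block and each library left out were tried. One gene that the rule for likeness names is not reported here.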

Additional observations from a re-analysis of the deposited data

Results flagged for a closer look

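Of 126 groups of 4 libraries examined for a library far from the others, 8 held one, and chance gives such a library in about 1 group in 20. In level, mt-Atp8 had 48.4 CPM in replicate 1 of the mutants at 7 weeks, while the other 3 lay near 27.8 to 30.1 CPM. The other 7 are log2 ratios of a member to the mean of the other 9. mt-Atp6 was high, at 0.75 in replicate 2 of the mutants at 7 weeks, 0.69 in replicate 2 of the restricted wild types and 0.79 in replicate 1 of the wild types fed AL at 16 weeks. mt-Co1 was at 1.16 in replicate 4 of the restricted wild types, mt-Co2 at 0.92 in replicate 4 of the wild types fed AL at 16 weeks, mt-Co3 at 0.96 in replicate 3 of the mutants fed AL at 16 weeks and mt-Nd2 at -1.59 in replicate 3 of the mutants at 7 weeks.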

How the results depend on the processing

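The 10 members were counted again in 8 comparisons under other scalings, filters and tools. With the replicate number as a block, 8 were called in wild types at 104 weeks against 16 weeks, beside 1096 of 12211 tested genes. In mutants at 16 weeks against wild types at 104 weeks 6 were called, beside 1473 of 12211. By edgeR's quasi-likelihood test, adjusted p over all 10 members ran from 0.0194 to 0.0576 in the first and 0.0277 to 0.0885 in the second. The highest among those called was 0.0374 and 0.0425. Over 60 pairs of libraries with the same number, deviations from group means correlated by -0.19 to 0.25, with 10 pairs over 0.1. Their mean was 0.0071, beside -0.0022 for pairs with different numbers. For 10 of 24 libraries the best partner in another group had the same number. These values do not decide whether the numbers mark pairs, and the main fit was kept without the block. In the members themselves, replicate 1 had the highest share of counts in 4 of 6 groups and the lowest in 0, and replicate 4 the lowest in 4 and the highest in 0. Whether the numbers mark a shared step of handling was not tested. DESeq2 called 1 member with age, mt-Atp8 at -1.41 with an adjusted p of 0.039, beside 1443 of the 19641 genes it fitted. With 1 library left out in turn, 0 to 3 were called with age and 0 to 2 in mutants against wild types at 104 weeks, and 0 in the other 6 comparisons. Members were called in 1 of 8 fits with age and in 1 of 8 against wild types at 104 weeks. These differences were not otherwise tested for cause.

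Directions near 0 turned under some settings. With library totals alone, mt-Nd4 was at 0.018 in mutants against wild types fed AL and mt-Atp8 at 0.054 in mutants against wild types under restriction. With the block, mt-Nd4 and mt-Cytb were at 0.026 and 0.010 in the first of these, mt-Nd2, mt-Nd4 and mt-Co2 at -0.23, -0.023 and -0.031 in the other, and mt-Nd2 and mt-Nd4 at -0.035 and -0.049 in the difference of restriction responses. Library totals alone moved the all-gene median to 0.11 in 3 comparisons. The cause was not tested.

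With 1 library left out, log2 changes ran as follows in results that turned. In mutants against wild types fed AL they ran from -0.46 to 0.058 for mt-Co1, -0.40 to 0.087 for mt-Cytb, -0.55 to 0.0092 for mt-Nd1, -0.42 to 0.20 for mt-Nd4 and -0.37 to 0.25 for mt-Nd5. In mutants at 16 against 7 weeks they ran from -0.066 to 0.34 for mt-Atp6 and -0.14 to 0.31 for mt-Atp8. In wild types under restriction against AL they ran from -0.19 to 0.30 for mt-Atp8 and -0.12 to 0.37 for mt-Cytb, and in mutants from -0.083 to 0.69 for mt-Atp8. Under restriction, mutants against wild types, they ran from -0.38 to 0.59 for mt-Atp6, -0.61 to 0.17 for mt-Atp8, -0.14 to 0.74 for mt-Co1, -0.47 to 0.37 for mt-Co2, -0.35 to 0.55 for mt-Co3, -0.12 to 0.75 for mt-Cytb, -0.36 to 0.52 for mt-Nd1, -0.66 to 0.28 for mt-Nd2, -0.46 to 0.42 for mt-Nd4 and -0.051 to 0.81 for mt-Nd5. In the difference of responses they ran from -0.13 to 0.66 for mt-Atp8, -0.056 to 0.85 for mt-Co2, -0.0042 to 0.98 for mt-Co3, -0.012 to 0.93 for mt-Cytb, -0.13 to 0.82 for mt-Nd1, -0.36 to 0.73 for mt-Nd2, -0.43 to 0.59 for mt-Nd4 and -0.084 to 0.94 for mt-Nd5.

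Over all genes, the fit on the groups compared alone called 2138 against 1310 in mutants against wild types fed AL, 436 against 53 in mutants at 16 against 7 weeks, 658 against 1483 for wild types under restriction and 769 against 2227 for mutants against wild types under restriction. DESeq2 called 162 against 53 in mutants at 16 against 7 weeks and 271 against 98 in the difference of responses, and library totals alone 99 against 53. With 1 library left out the counts ran from 806 to 1090, 755 to 1034 (against 1141 with all, for age), 17 to 43, 941 to 1864 and 61 to 205, in the order of mutants against wild types fed AL, age, mutants at 16 against 7 weeks, restriction in wild types and the difference of responses, and from 934 to 1463 (against 1420) for restriction in mutants. Outside the members, Ppargc1a in restricted mutants was the only named gene followed with single livers left out. It was added after seeing the data, with the counts of nuclear subunits. Its call was lost without replicate 1 of the restricted mutants (0.94). Whether the calls of the other named nuclear genes hold with a liver left out was not tested.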
